A study of Homo sapiens with 30 samples.

Results

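The genes described here encode the matrix metalloproteases (MMP genes), the secreted ADAMTS proteases, the tissue inhibitors of metalloproteases (TIMP1 to TIMP4) and FAP, a serine protease of the cell surface. They were chosen by symbol among protein-coding genes: 23 MMP genes, 19 ADAMTS genes, 4 TIMP genes and FAP, 47 in all. ADAMTS-like genes, which encode no protease, were left out. The count table of the first experiment listed 45 of them among 38526 genes, and that of the retransplantation experiment listed 44 among 36291. MMP26 and MMP27 were not analysed here, nor was ADAMTS18 in the second table.

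RNA was sequenced from sorted human cells of MDA-MB-231, a line of triple-negative breast cancer that carried LeGO lentiviral barcodes. The cells had grown in NOD-SCID-IL2Rγc−/− (NSG) mice, which lack T, B and NK cells, and all groups share that line and host. The first experiment held lung metastases, liver metastases and primary tumours of subclone 13, and lung metastases, liver metastases and primary tumours of subclone 2, each from mice 1, 2 and 3. Each subclone is a single clone. The retransplantation experiment held lung and liver metastases of subclone 2 from mice 4, 5 and 6, without stating if the organ is the origin of the cells or the place of growth. The age of the mice and the time after transplantation are not given in the sources used here.

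Matrix metalloproteases cut collagens, laminins and other matrix proteins, and most are made as inactive precursors that another protease must open. MMP14 is anchored in the cell membrane and degrades fibrillar collagen around the cell. TIMP2 bound to MMP14 recruits the precursor of MMP2 for activation, whereas an excess of TIMP2 blocks MMP14. ADAMTS proteases are secreted and cleave proteoglycans such as versican and aggrecan, or remove the ends of procollagen. TIMP3 is bound to matrix and is the TIMP known for inhibiting ADAMTS proteases.

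Total counts per sample were 11807225 to 82218315 in the first experiment and 23406778 to 32322333 in the retransplantation experiment. The 6 samples of mouse 1 lay apart from the other 12 along the leading principal component (32.9% of variance), with scores of 38.4 and above against 9.87 and below. In the first experiment the sequencing run had the same number as the mouse, apart from the subclone 13 samples of mouse 1, whose 3 libraries from 3 runs were summed. VIM, a marker of this mesenchymal-like line, averaged 3904 to 7624 CPM in the 6 groups, and the markers that it holds at low levels or lacks (ESR1, PGR, CDH1 and EPCAM) summed to at most 59.4 CPM in a sample. Markers of macrophages and leukocytes summed to 3.78 to 24.4 CPM those of endothelium to 11.9 to 46.4 CPM, those of hepatocytes to 26.3 to 236 CPM and those of lung epithelium to 1.88 to 8.28 CPM in the first experiment. SERPINA1 led the hepatocyte sum in each group, at means of 45.3 to 179 CPM. The highest hepatocyte sum, 236 CPM, was in a subclone 13 tumour, and the lowest, 26.3 CPM, in a subclone 2 liver metastasis. Among the hepatocyte markers FGB was at 0 in all groups but subclone 13 tumours. Here CPM is the usual scaling of a gene's count to a fixed library size, with TMM factors applied between samples.

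Promoter sequence is shown for 4 members that were lower in metastases than in tumours in at least 1 comparison below, so that the letters can be read beside the values. RefSeq (GRCh38.p14) gave windows for 27 of the 47 members, not including ADAMTS1, FAP or MMP1. The 120 bases run 5′ to 3′ on the gene's strand, from 100 bases before the annotated start to 20 bases from it, and capitals mark the motif letters described after them.
MMP14: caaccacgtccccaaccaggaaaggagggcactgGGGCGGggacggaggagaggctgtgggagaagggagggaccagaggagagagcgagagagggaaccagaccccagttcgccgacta
ADAMTS6: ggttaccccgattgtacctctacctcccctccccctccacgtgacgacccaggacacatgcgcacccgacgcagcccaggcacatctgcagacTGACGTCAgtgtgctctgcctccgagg
ADAMTS12: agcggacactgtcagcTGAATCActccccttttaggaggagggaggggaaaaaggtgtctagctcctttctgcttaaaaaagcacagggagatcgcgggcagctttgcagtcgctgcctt
MMP7: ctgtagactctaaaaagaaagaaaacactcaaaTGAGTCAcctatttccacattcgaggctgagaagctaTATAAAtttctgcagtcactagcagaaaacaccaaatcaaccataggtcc

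These stretches lie at chr14:22836485-22836604 (MMP14, plus strand), chr5:65481901-65482020 (ADAMTS6, minus strand), chr5:33891971-33892090 (ADAMTS12, minus strand) and chr11:102530728-102530847 (MMP7, minus strand). The AP-1 letters TGANTCA begin 84 bases before the start in ADAMTS12 and 67 bases before it in MMP7. In full windows of 300 bases (250 before the start and 50 from it) they were in 4 of 28 member windows (14.3%), against 7.71% of 35116 RefSeq windows. The CRE letters TGACGTCA begin 7 bases before the start in ADAMTS6 and were in 1 of 28 member windows (3.57%), against 1.85% of all windows. The GC box letters GGGCGG begin 66 bases before the start in MMP14 and were in 19 of 28 member windows (67.9%), against 45% of all windows. The letters TATAAA begin 30 bases before the start in MMP7 and were in 7 of 28 member windows (25%), against 11.5%. Both strands were searched, none of these motifs contains another, and a match describes the letters only, since no factor binding was measured.

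MMP14 and 3 TIMP genes dominated the family. On a scale per exon length (RPKM, the CPM per kilobase of exon), TIMP1 had the highest mean in the first experiment, 383 RPKM, followed by MMP14 with 264, TIMP3 with 112 and TIMP2 with 100.1 RPKM. MMP14 and the TIMP genes together made up 92.0 to 98% of the summed RPKM of the family in each of the 18 samples. ADAMTS1 came next at 7.25, then ADAMTS15 at 6.96, ADAMTS14 at 6.89, ADAMTS7 at 2.12, MMP19 at 2.04 and MMP11 at 1.79 RPKM. Each of these 10 genes overlapped its neighbour in this order over the 18 samples, except TIMP2 and ADAMTS1. The ranges alone thus did not order neighbours. Genes further apart could separate, as ADAMTS15 ran from 4.01 RPKM upwards and MMP11 reached at most 3.50 RPKM. Within each of the 18 samples MMP14 was above TIMP2 (MMP14 over TIMP2 of 1.18 to 5.21). TIMP1 was above MMP14 except in the subclone 2 liver sample of mouse 2 (MMP14 over TIMP1 of 1.18). The leading 4 ran from 47.9 RPKM upwards, and no sample of the other 6 was above 16.5 RPKM.

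Most other members were close to the detection limit. Of the 45 listed, 12 had a mean of at least 5 CPM and 22 a mean below 1 CPM in the first experiment. The gelatinases MMP2 and MMP9 reached at most 3.65 and 1.31 CPM in any sample. ADAMTS18 had 0 counts in all 18 samples, which allows up to 0.00509 CPM over their summed depth (3 counts, counting error only). A filter on low counts passed 32 members to the tests: 15 MMP genes, 12 ADAMTS genes, 4 TIMP genes and FAP. The other 13 reached at most 1.51 CPM in any sample.

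**Figure D1:**
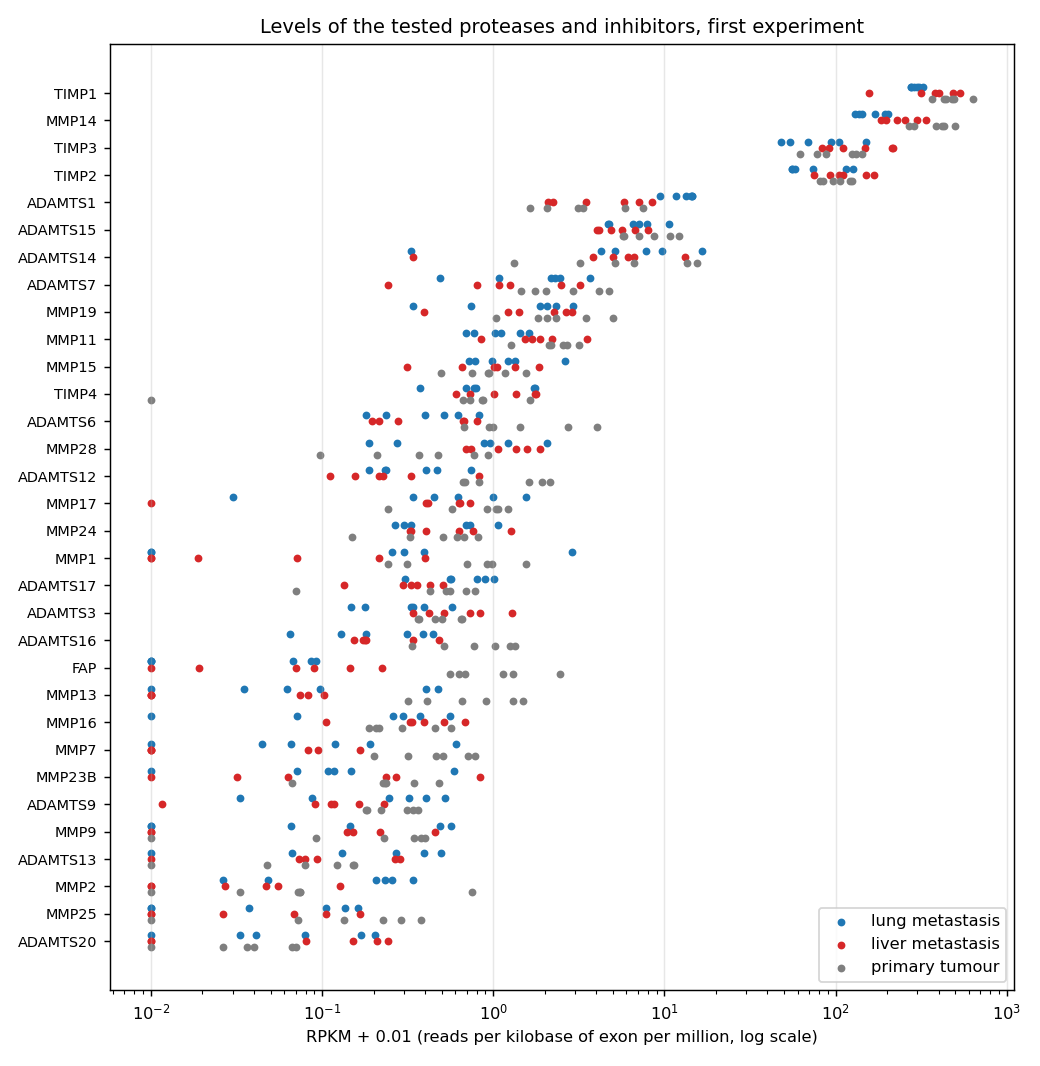
Level of each of the 32 tested members in the first experiment, in RPKM + 0.01 on a log axis, ordered by mean. Each point is 1 sample (blue, lung metastasis; red, liver metastasis; grey, primary tumour, 6 each); TIMP1, MMP14, TIMP3 and TIMP2 lie above all other members.

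Many MMP genes lie side by side on chromosome 11 (chr11:102520508-102955734, GRCh38), where GENCODE v29 places 9 of them: MMP7, MMP20, MMP27, MMP8, MMP10, MMP1, MMP3, MMP12 and MMP13. None of the 8 that were listed exceeded 2.87 RPKM in any sample of the first experiment, a value reached by MMP1, the interstitial collagenase. MMP1, MMP7 and MMP13 passed the filter.

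The first comparison was between lung metastases and primary tumours of the same mice. In subclone 13, 1 of the 32 tested members passed an adjusted p of 0.05 (edgeR quasi-likelihood F test, Benjamini-Hochberg over 17418 genes), beside 0.419% of all genes. In subclone 2, 1 of 32 passed, beside 0.436% of all genes. It was MMP14 in both, lower in the metastases. In these bulk samples, fewer cells that express a gene and less of its RNA per cell cannot be told apart. The p-values of this fit measure the spread between samples of different mice, which mostly differed in sequencing run as well. The fit treats samples of the same mouse as independent.

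The median log2 fold change of lung against tumour over the 32 members was -0.39 in subclone 13 and -0.48 in subclone 2, beside 0.03 and 0.05 over all tested genes. With mouse number as a term in the edgeR fit, 5 of 32 members passed in subclone 13 (1 higher and 4 lower, beside 2.89% of all genes) and 5 of 32 in subclone 2 (1 higher and 4 lower, beside 3.05%). DESeq2 called 5 in subclone 13 (1.94% of all genes) and 4 in subclone 2 (2.06%).

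In liver metastases against primary tumours of subclone 13, 2 of 32 members passed in edgeR, ADAMTS12 and ADAMTS6, both lower, beside 0.385% of all genes. In subclone 2 none of the 32 passed, beside 0.287% of all genes, while 7 members reached 0.05 unadjusted. The share of all genes is for adjusted p. No share was taken for unadjusted p, here or below, so counts of members at unadjusted p have no background beside them. The median log2 fold change over members was -0.46 in subclone 13 and -0.40 in subclone 2, beside 0.02 and 0.05 over all genes. With the mouse term 3 of 32 passed in subclone 13 (1.83% of all genes) and 3 of 32 in subclone 2 (1.68%), all lower. DESeq2 called 3 in subclone 13 (1.41% of all genes) and 4 in subclone 2 (1.44%).

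Counted by samples, all 3 lung metastases lay below all 3 tumours for 7 of 32 members in subclone 13 (21.9%, beside 9.91% of genes) and for 7 in subclone 2 (21.9%, beside 7.49%). They lay above for 1 member in each, ADAMTS1 (beside 7.37% of genes in subclone 13 and 7.33% in subclone 2). All 3 liver metastases lay below all 3 tumours for 10 of 32 members in subclone 13 (31.2%, beside 7.97%) and for 8 in subclone 2 (25%, beside 5.1%). They lay above for 2 members in subclone 13, ADAMTS20 and TIMP4 (beside 5.22%), and for none in subclone 2 (beside 4.32%). FAP and ADAMTS6 were below in both organs of both subclones. MMP7 and MMP13, which were below in some of these comparisons, passed the filter on low counts only through their tumour samples. Their place in these counts was thus not independent of the filter.

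**Figure D2:**
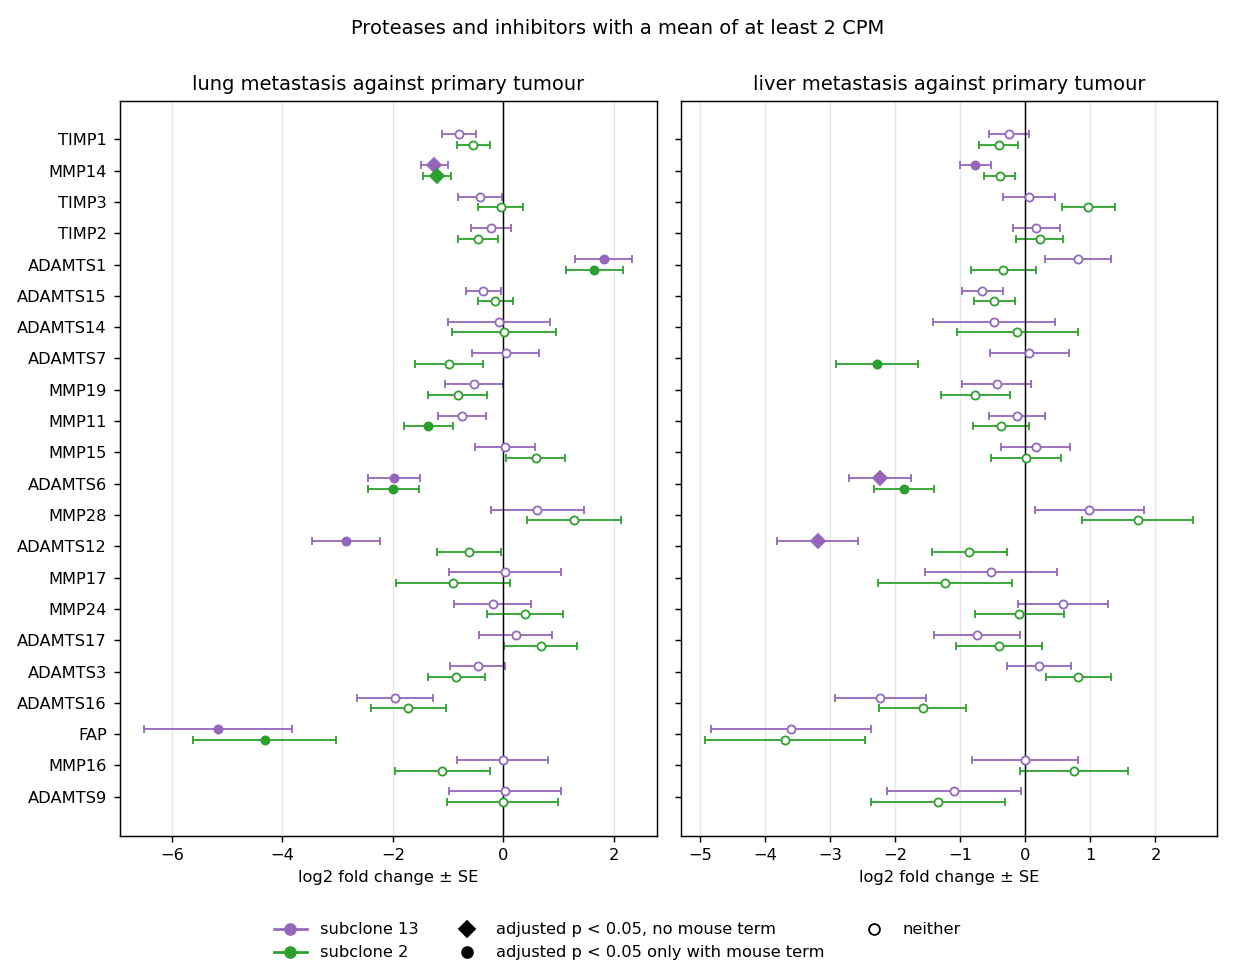
Log2 fold change ± SE of members with a mean of at least 2 CPM, lung metastasis against tumour (left) and liver metastasis against tumour (right), subclone 13 in purple and subclone 2 in green. Diamonds passed an adjusted p of 0.05 without a mouse term (edgeR), filled circles only with it, and open circles in neither; ADAMTS1 in lung lies right of 0, and the other marked genes lie left of it.

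MMP14, the membrane-type collagenase (chr14:22836557-22849027, plus strand), had 904, 757.5 and 865 CPM in lung metastases and 1907, 1877 and 2217 CPM in tumours of subclone 13, in mice 1, 2 and 3. For subclone 2, MMP14 had 608, 633 and 579.5 CPM in lung metastases and 1276, 1195 and 1720 CPM in tumours. Every lung sample was below every tumour sample of its subclone. MMP14 fell in lung metastases by 1.25 ± 0.25 on the log2 scale in subclone 13 (SE; edgeR adjusted p = 0.0296, and 0.00147 with the mouse term). It fell by 1.20 ± 0.24 in subclone 2 (edgeR adjusted p = 0.0357, and 0.00223 with the mouse term).

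Both calls were lost when single samples were left out, while the sizes of the differences held. In subclone 13, edgeR's adjusted p was 0.0703, 0.165 and 0.108 without the lung sample of mouse 1, 2 or 3, and 0.0794, 0.106 and 0.139 without the tumour sample of mouse 1, 2 or 3. In subclone 2, edgeR's adjusted p was 0.0927, 0.132 and 0.139 without the lung sample of mouse 1, 2 or 3, and 0.0786 and 0.166 without the tumour sample of mouse 1 or 3. The subclone 2 call was also lost in a fit of its own groups alone (edgeR adjusted p = 0.0975). Over 17 alternative analyses the log2 fold change stayed between -1.33 and -1.14 in subclone 13 and between -1.35 and -1.03 in subclone 2.

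In liver metastases MMP14 had 1503, 885 and 1136 CPM in subclone 13 and 1025, 826 and 1334 CPM in subclone 2. The subclone 13 liver samples were all below the 3 tumours, while in subclone 2 the liver and tumour samples overlapped. The log2 fold change was -0.77 ± 0.24 in subclone 13 (edgeR adjusted p = 0.329, and 0.0442 with the mouse term). It was -0.40 ± 0.24 in subclone 2 (edgeR adjusted p = 0.924, and 0.403 with the mouse term).

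TIMP1, a secreted inhibitor of most MMPs (chrX:47582313-47586789, plus strand), was the most abundant member per length. It had 458, 428 and 498 CPM in lung metastases, 825, 587.5 and 616.5 CPM in liver metastases and 683, 753.5 and 981 CPM in tumours of subclone 13. For subclone 2, TIMP1 had 476, 442 and 427 CPM in lung metastases, 749.8, 242 and 489 CPM in liver metastases and 564, 659.6 and 741 CPM in tumours. Lung samples were below tumour samples in both subclones, and liver samples overlapped the tumours. The log2 fold change of lung against tumour was -0.81 ± 0.30 in subclone 13 (edgeR adjusted p = 0.414) and -0.55 ± 0.30 in subclone 2 (edgeR adjusted p = 0.629), so neither passed.

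TIMP2, the partner of MMP14 in MMP2 activation (chr17:78852977-78925387, minus strand), had 715, 314.5 and 415 CPM in lung metastases, 946, 421 and 523 CPM in liver metastases and 684, 454 and 541 CPM in tumours of subclone 13. For subclone 2, TIMP2 had 651, 314 and 325 CPM in lung metastases, 852, 592 and 625 CPM in liver metastases and 701, 474 and 598 CPM in tumours. Mouse 1 gave the highest sample in all 6 groups, as it did for 9.02% of all tested genes and for no other member. An unnamed gene on the opposite strand and CEP295NL on the same strand share 565 exon bases with TIMP2, and since the library kit keeps no strand their reads cannot be told apart.

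TIMP3, the matrix-bound inhibitor (chr22:32801701-32863043, plus strand), had 689.9, 435 and 249 CPM in lung metastases, 979, 506.5 and 424 CPM in liver metastases and 605, 658 and 576 CPM in tumours of subclone 13. For subclone 2, TIMP3 had 479, 220.3 and 317 CPM in lung metastases, 682, 993 and 382 CPM in liver metastases and 360.1, 285 and 407 CPM in tumours. Organs overlapped within each subclone. TIMP4 averaged between 1.23 and 2.27 CPM in the 6 groups. None of the 4 TIMP genes passed against tumours in edgeR, without or with the mouse term.

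**Figure D3:**
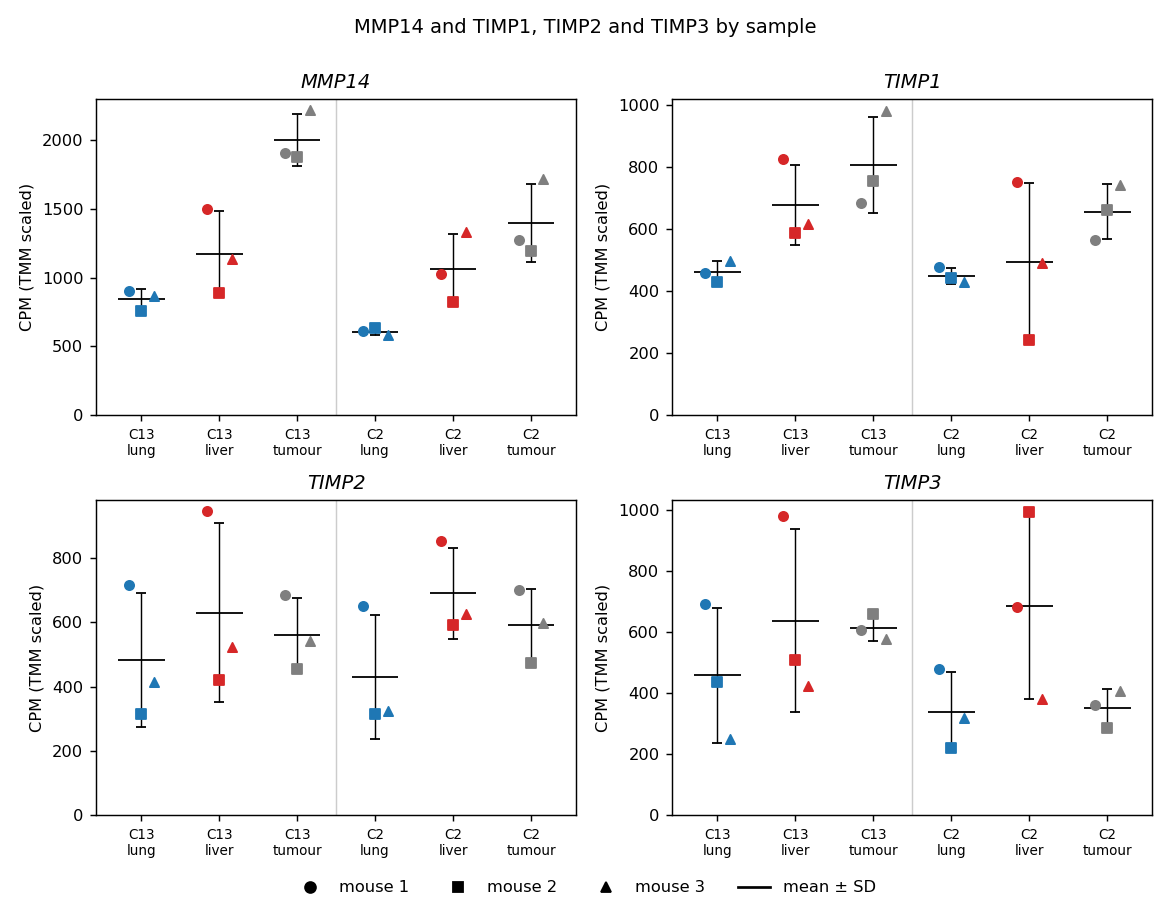
CPM of MMP14, TIMP1, TIMP2 and TIMP3 in each sample of the first experiment (circle, square and triangle for mice 1, 2 and 3), with mean ± SD of 3, for lung, liver and tumour of subclone 13 (C13, left) and subclone 2 (C2, right). MMP14 lung samples lie below the tumour samples of their subclone, and TIMP2 is highest in mouse 1 in each group.

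The ratio of protease to inhibitor within a sample does not depend on scaling between samples. MMP14 over the summed TIMP genes, in RPKM, was 0.352 to 0.429 in lung metastases, 0.349 to 0.434 in liver metastases and 0.579 to 0.613 in tumours of subclone 13. For subclone 2 that ratio was 0.257 to 0.363 in lung metastases, 0.292 to 0.584 in liver metastases and 0.465 to 0.569 in tumours. By this ratio the metastases of subclone 13 and the lung metastases of subclone 2 lay below the tumours without overlap. The liver metastases of subclone 2 overlapped them. Over TIMP2 alone, MMP14 was 1.18 to 2.55 in lung metastases and 2.295 to 3.63 in tumours of subclone 2, which overlapped. In subclone 13 it was 1.60 to 3.04 in lung, 2.01 to 2.74 in liver and 3.52 to 5.21 in tumours. Such a ratio is one of RNA levels and does not measure enzyme activity.

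ADAMTS1, a proteoglycanase that cleaves versican and aggrecan (chr21:26835747-26845409, minus strand), had its highest levels in lung. It had 66.5, 103 and 101 CPM in lung metastases, 24.65, 49.96 and 60.0 CPM in liver metastases and 23.4, 11.6 and 41.5 CPM in tumours of subclone 13. For subclone 2, ADAMTS1 had 103, 94.0 and 82.9 CPM in lung metastases, 40.9, 14.6 and 15.7 CPM in liver metastases and 22.0, 14.5 and 52.6 CPM in tumours. All 6 lung samples were above all 12 liver and tumour samples, which overlapped each other.

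Against tumours the log2 fold change of ADAMTS1 in lung was 1.82 ± 0.51 in subclone 13 (edgeR adjusted p = 0.172, and 0.0226 with the mouse term). It was 1.65 ± 0.51 in subclone 2 (edgeR adjusted p = 0.232, and 0.0333 with the mouse term). In liver it was 0.81 ± 0.50 in subclone 13 and -0.34 ± 0.50 in subclone 2 (edgeR adjusted p = 1 and 1), and did not pass.

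ADAMTS6 (chr5:65148736-65481920, minus strand), whose mouse counterpart is needed for heart development, lay lower in both metastatic organs. It had 1.46, 3.335 and 1.93 CPM in lung metastases, 1.59, 1.75 and 2.30 CPM in liver metastases and 12.2, 5.685 and 8.40 CPM in tumours of subclone 13. For subclone 2, ADAMTS6 had 4.35, 6.96 and 5.24 CPM in lung metastases, 5.71, 5.64 and 6.82 CPM in liver metastases and 7.99, 23.4 and 34.65 CPM in tumours. All metastases lay below the tumours of their subclone, and among the subclone 2 tumours mouse 1 was nearest to them.

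ADAMTS6 fell in subclone 13 liver by 2.23 ± 0.48 on the log2 scale (edgeR adjusted p = 0.0483, and 0.00743 with the mouse term). This call was lost in 14 of 17 alternative analyses. Without 1 sample edgeR's adjusted p was 0.254, 0.254 and 0.136 (liver of mouse 1, 2 or 3) and 0.196, 0.0561 and 0.146 (tumour of mouse 1, 2 or 3). The log2 fold change was -1.99 ± 0.47 in subclone 13 lung (edgeR adjusted p = 0.0783, and 0.0137 with the mouse term).

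In subclone 2 the ADAMTS6 log2 fold change was -1.99 ± 0.46 in lung (edgeR adjusted p = 0.0748, and 0.0177 with the mouse term). It was -1.86 ± 0.46 in liver (edgeR adjusted p = 0.131, and 0.0338 with the mouse term). Without the tumour sample of mouse 1, edgeR's adjusted p in the fit without a mouse term was 0.0231 in lung and 0.0267 in liver.

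ADAMTS12, which like ADAMTS7 cleaves the cartilage protein COMP (chr5:33523535-33892192, minus strand), had 1.73, 2.20 and 3.85 CPM in lung metastases, 0.983, 2.00 and 3.15 CPM in liver metastases and 15.7, 20.8 and 18.7 CPM in tumours of subclone 13. For subclone 2, ADAMTS12 had 4.515, 2.18 and 7.12 CPM in lung metastases, 2.12, 1.42 and 7.93 CPM in liver metastases and 6.38, 6.56 and 8.02 CPM in tumours. The subclone 13 tumours were above all other 15 samples, and in subclone 2 the organs overlapped.

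ADAMTS12 fell in subclone 13 liver by 3.20 ± 0.63 on the log2 scale (edgeR adjusted p = 0.0265, and 0.000396 with the mouse term). That call was lost in 9 of 17 alternative analyses, each of which left out a sample or a mouse. Without 1 sample edgeR's adjusted p was 0.164, 0.168 and 0.0632 (liver of mouse 1, 2 or 3) and 0.0526, 0.0876 and 0.101 (tumour of mouse 1, 2 or 3). In subclone 13 lung the log2 fold change was -2.84 ± 0.62 (edgeR adjusted p = 0.0507, and 0.00107 with the mouse term).

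In subclone 2 the ADAMTS12 log2 fold change was -0.62 ± 0.58 in lung and -0.86 ± 0.58 in liver (edgeR adjusted p = 0.839 and 0.953). The lung effect of subclone 13 minus that of subclone 2 was -2.23 ± 0.83 on the log2 scale and the liver effect difference was -2.33 ± 0.83, and neither passed (edgeR adjusted p = 1 and 1).

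ADAMTS7, the relative of ADAMTS12 (chr15:78759203-78811431, minus strand), had 8.25, 16.7 and 28.2 CPM in lung metastases, 19.2, 9.62 and 24.8 CPM in liver metastases and 13.4, 15.7 and 22.4 CPM in tumours of subclone 13. For subclone 2, ADAMTS7 had 3.71, 17.7 and 18.8 CPM in lung metastases, 1.80, 8.255 and 6.14 CPM in liver metastases and 11.2, 32.1 and 36.65 CPM in tumours. Subclone 2 liver samples were below its tumours, and the organs of subclone 13 overlapped. The subclone 2 liver difference was -2.28 ± 0.64 (edgeR adjusted p = 0.221, and 0.00727 with the mouse term). Without mouse 1 it was called without a mouse term too (edgeR adjusted p = 0.0279). ADAMTS7 has near-identical pseudogene copies, so its counts are uncertain.

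ADAMTS14, a procollagen N-proteinase, had 22.4, 51.2 and 87.1 CPM in lung metastases, 20.03, 32.4 and 69.2 CPM in liver metastases and 16.85, 81.7 and 71.1 CPM in tumours of subclone 13. For subclone 2, ADAMTS14 had 1.69, 26.95 and 41.0 CPM in lung metastases, 1.73, 34.7 and 26.45 CPM in liver metastases and 6.87, 27.2 and 34.8 CPM in tumours. Mouse 1 gave the lowest sample in all 6 groups, as it did for 9.57% of all tested genes and for no other member, and the organs overlapped in each subclone.

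ADAMTS15, a proteoglycanase like ADAMTS1, had 60.4, 26.9 and 44.55 CPM in lung metastases, 45.6, 23.4 and 38.2 CPM in liver metastases and 40.4, 68.9 and 61.1 CPM in tumours of subclone 13. For subclone 2, ADAMTS15 had 40.0, 26.6 and 36.9 CPM in lung metastases, 32.1, 27.6 and 22.8 CPM in liver metastases and 32.4, 33.0 and 49.2 CPM in tumours. Organs overlapped apart from subclone 2 liver, just below its tumours. No difference passed for ADAMTS14 or ADAMTS15 in edgeR, without or with the mouse term. ADAMTS16 was lower in the metastasis than in the tumour in all 3 mice in both organs of both subclones, at group means of 0.944 to 5.68 CPM, and did not pass in either edgeR fit.

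**Figure D4:**
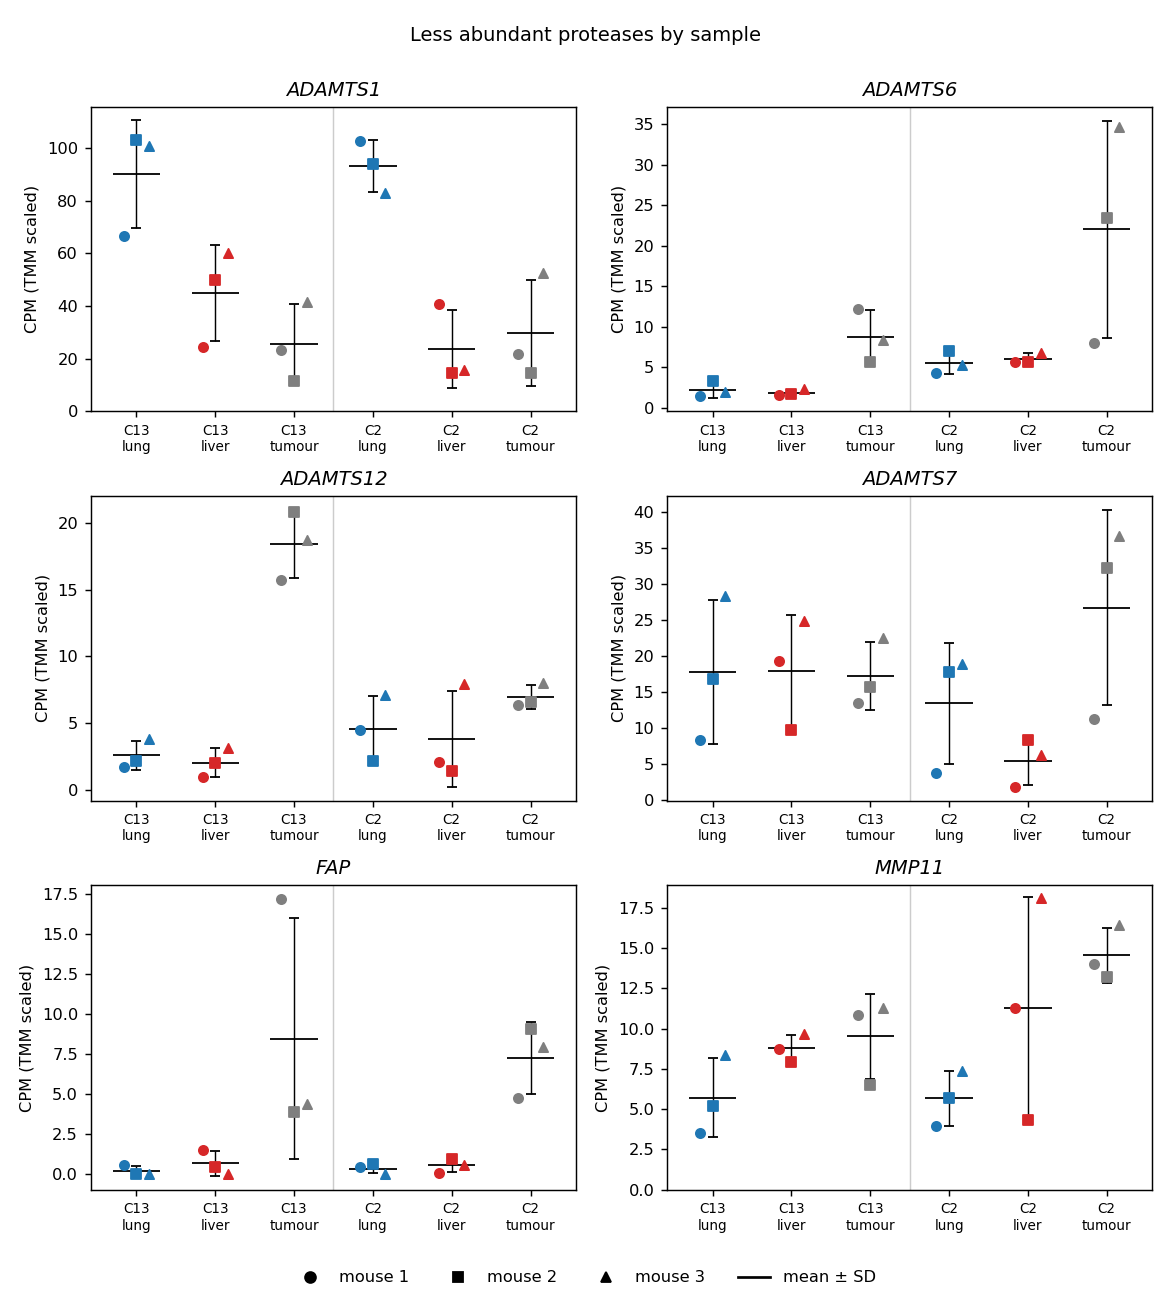
CPM of ADAMTS1, ADAMTS6, ADAMTS12, ADAMTS7, FAP and MMP11 in each sample of the first experiment (circle, square and triangle for mice 1, 2 and 3), with mean ± SD of 3, for lung, liver and tumour of subclone 13 (C13, left) and subclone 2 (C2, right). ADAMTS1 is highest in lung in both subclones, while ADAMTS6 and FAP are highest in tumours.

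FAP, a surface protease that cuts after proline and is known from activated fibroblasts (chr2:162170684-162245151, minus strand), had 0.534, 0 and 0 CPM in lung metastases, 1.51, 0.423 and 0 CPM in liver metastases and 17.2, 3.84 and 4.34 CPM in tumours of subclone 13. For subclone 2, FAP had 0.403, 0.578 and 0 CPM in lung metastases, 0.0641, 0.948 and 0.554 CPM in liver metastases and 4.71, 9.05 and 7.925 CPM in tumours. In both subclones of the first experiment all tumour samples were above all metastases of that subclone. The 3 subclone 13 lung samples held 38 counts, all from mouse 1, against 979 counts in the tumours.

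The FAP log2 fold change in lung was -5.16 ± 1.34 in subclone 13 (edgeR adjusted p = 0.121, and 0.013 with the mouse term), and without mouse 1 it passed in the fit without that term (edgeR adjusted p = 0.0258). It was -4.32 ± 1.30 in subclone 2 (edgeR adjusted p = 0.203, and 0.0224 with the mouse term). In liver it was -3.61 ± 1.23 in subclone 13 and -3.70 ± 1.23 in subclone 2, and did not pass (edgeR adjusted p = 0.394 and 0.368, with the mouse term 0.0614 and 0.0635). An unnamed gene on the opposite strand shares 638 exon bases with FAP, so their reads cannot be told apart.

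Markers of fibroblasts, stellate cells and smooth muscle (9 genes) summed to 45.7 to 76.2 CPM in lung metastases, 39.9 to 92.8 CPM in liver metastases and 68.4 to 164 CPM in tumours of subclone 13. For subclone 2 these markers summed to 34.4 to 105 CPM in lung metastases, 23.9 to 45.0 CPM in liver metastases and 64.9 to 144 CPM in tumours. COL1A1 led the sum in each group. DCN was at 0 in subclone 13 liver metastases and PDGFRA at 0 in subclone 2 tumours. PDGFRB, a receptor of pericytes and fibroblasts, was lower than in tumours with the mouse term in subclone 13 lung (-1.28 ± 0.32), subclone 2 lung (-1.33 ± 0.32) and subclone 2 liver (-1.35 ± 0.32; edgeR adjusted p = 0.0343, 0.0279 and 0.0347). COL1A1 was lower in subclone 2 liver with that term (-2.22 ± 0.49, edgeR adjusted p = 0.022). CD14, a marker of monocytes and macrophages, was higher in lung and in liver metastases of subclone 13 with that term (2.68 ± 0.70 and 2.90 ± 0.71, edgeR adjusted p = 0.0448 and 0.041). In subclone 2 CD14 was 2.45 ± 0.74 in lung and 2.91 ± 0.74 in liver with it (edgeR adjusted p = 0.0791 and 0.0504). CSF1R of the same list went the other way in subclone 13 lung and liver (-1.39 ± 0.46 and -0.55 ± 0.45, edgeR adjusted p = 0.126 and 0.757). There PTPRC, CD68 and LYZ were -0.02, 0.93 and -0.25 in lung and -0.04, 0.23 and 1.21 in liver, and did not pass. None of these marker differences passed without the mouse term. Their part in the FAP, MMP and ADAMTS differences was not tested.

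Among the secreted MMPs, MMP11 (stromelysin-3; chr22:23768226-23784316, plus strand), which furin activates inside the cell, had 3.53, 5.22 and 8.38 CPM in lung metastases, 8.71, 7.92 and 9.655 CPM in liver metastases and 10.8, 6.50 and 11.3 CPM in tumours of subclone 13. For subclone 2, MMP11 had 3.95, 5.69 and 7.37 CPM in lung metastases, 11.3, 4.33 and 18.1 CPM in liver metastases and 13.99, 13.2 and 16.4 CPM in tumours. Lung samples lay below all tumours in subclone 2 and overlapped them in subclone 13. The subclone 2 difference was -1.36 ± 0.44 (edgeR adjusted p = 0.251, and 0.0393 with the mouse term). MMP11 shares 218 exon bases with CHCHD10 on the opposite strand.

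MMP19, a broadly acting secreted protease, had 9.57, 10.9 and 13.6 CPM in lung metastases, 13.35, 10.5 and 12.35 CPM in liver metastases and 9.58, 23.35 and 16.3 CPM in tumours of subclone 13. For subclone 2, MMP19 had 1.53, 3.395 and 8.76 CPM in lung metastases, 1.80, 6.55 and 5.625 CPM in liver metastases and 4.83, 8.47 and 10.8 CPM in tumours. Subclone 13 was above subclone 2 without overlap in lung and in liver. Those differences were 1.32 ± 0.54 in lung and 1.36 ± 0.54 in liver on the log2 scale and did not pass (edgeR adjusted p = 0.57 and 0.514, with the mouse term 0.0754 and 0.0585). MMP19 shares 814 of its 4672 exon bases with TMEM198B on the opposite strand, so reads there cannot be told apart.

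MMP7 (matrilysin; chr11:102520508-102530753, minus strand), a small protease without a hemopexin domain, had 0.4215, 0.252 and 0 CPM in lung metastases, 0.169, 0.363 and 0.197 CPM in liver metastases and 1.165, 1.64 and 1.79 CPM in tumours of subclone 13. For subclone 2, MMP7 had 0.0806, 0.131 and 1.39 CPM in lung metastases, 0 CPM in the 3 liver metastases and 1.05, 0.446 and 0.714 CPM in tumours. The liver metastases of subclone 2 held 0 counts, against 55 in its tumours, and with 3 counts over the liver group (0.0195 CPM) the level was at least 37.4-fold lower. In that comparison edgeR's adjusted p was 0.0762, and 0.0295 with the mouse term.

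The collagenase MMP13 had 0.07025 to 1.32 CPM in lung metastases, 0 to 0.263 CPM in liver metastases and 1.13 to 3.65 CPM in tumours of subclone 13. For subclone 2, MMP13 had 0 to 0.246 CPM in lung metastases, 0 to 0.208 CPM in liver metastases and 0.867 to 4.20 CPM in tumours. Both metastatic organs of subclone 2 and the liver metastases of subclone 13 lay below their tumours without overlap. No MMP13 difference passed in edgeR, with adjusted p-values in the mouse-term fit of 0.0685 in subclone 13 liver, 0.0811 in subclone 2 lung and 0.0584 in subclone 2 liver.

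Lung and liver metastases were then compared with each other. In subclone 13 none of the 32 members passed in edgeR, beside 0% of all genes. There 0 members reached 0.05 unadjusted, DESeq2 called 0 (0.339% of all genes), and with the mouse term 0 passed (0.276% of all genes). In subclone 2 none of 32 passed, beside 0.023% of all genes, and DESeq2 called 3 (1.45% of all genes). There 7 members reached 0.05 unadjusted, a threshold for which no share of all genes was taken. With the mouse term 4 members passed in subclone 2 (2.95% of all genes): ADAMTS1 and MMP7 were higher in lung, MMP14 and TIMP2 lower.

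ADAMTS1 was higher in lung than in liver in all 3 mice of each subclone, without overlap of the groups. The log2 fold change was 1.01 ± 0.50 in subclone 13 (edgeR adjusted p = 1, and 0.377 with the mouse term). It was 1.98 ± 0.52 in subclone 2 (edgeR adjusted p = 0.209, and 0.0223 with the mouse term). Without mouse 1 the subclone 2 value was 2.51 and passed without a mouse term (edgeR adjusted p = 0.0459).

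In subclone 2 MMP14 differed between lung and liver by -0.81 ± 0.24 (edgeR adjusted p = 0.279, and 0.0371 with the mouse term). TIMP2 differed by -0.68 ± 0.36 (edgeR adjusted p = 0.598, and 0.032 with the mouse term). MMP7 was at least 16.4-fold higher in lung than the 3-count limit for liver, from 25 counts, 17 of them in mouse 3 (edgeR adjusted p = 0.143, and 0.0398 with the mouse term). All 3 lung samples lay above all 3 liver samples for 3 of 32 members in subclone 13 (9.38%, beside 5.23% of genes) and 2 in subclone 2 (6.25%, beside 5.92%). They lay below for 1 member in subclone 13 (3.12%, beside 5.53% of genes) and 2 in subclone 2 (6.25%, beside 6.1%).

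The retransplanted subclone 2 cells gave another set of lung and liver samples, from other mice. None of 32 tested members passed in lung against liver in edgeR, beside 0% of all 17549 genes, while 5 reached 0.05 unadjusted and DESeq2 called 1 (2.3% of all genes). With the mouse term 1 passed (0.479% of all genes), ADAMTS1. It had 130.4, 77.3 and 148 CPM in lung and 16.2, 15.1 and 57.5 CPM in liver samples of mice 4, 5 and 6, and every lung sample was above every liver sample. The log2 fold change was 2.00 ± 0.52 (edgeR adjusted p = 0.216, and 0.0342 with the mouse term).

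Some markers of other cells were also higher in these lung samples than in the liver samples. COL3A1, a fibrillar collagen of fibroblasts, averaged 13.4 ± 4.93 CPM in lung and 0.619 ± 0.208 CPM in liver samples without overlap (SD, n = 3 each), a log2 fold change of 4.40 ± 0.43 with the mouse term (edgeR adjusted p = 0.0167). SFTPC, a surfactant protein of alveolar cells, had 0.876 to 3.49 CPM in lung and 0 to 0.0304 CPM in liver samples (edgeR adjusted p = 0.0167 with the mouse term). AGER, the most abundant marker of the lung epithelium list, was lower in lung than in liver samples without overlap, at means of 3.95 and 6.09 CPM. Its log2 fold change with the mouse term was -0.61 ± 0.26 (edgeR adjusted p = 0.296). PTPRC, the leukocyte antigen CD45, had 1.12 to 2.99 CPM in lung and 0.297 to 0.334 CPM in liver samples (adjusted p = 0.0766 in edgeR with the mouse term, and 0.00249 in DESeq2). CD14, CSF1R and LYZ of the same list were -0.25 ± 0.37, 0.27 ± 0.33 and 0.32 ± 0.34 with the mouse term (edgeR adjusted p = 0.777, 0.729 and 0.682). The fibroblast list summed to 51.8 to 96.1 CPM in lung and 30.1 to 71.5 CPM in liver samples, and the macrophage and leukocyte list to 7.78 to 15.5 CPM in lung and 7.87 to 15.95 CPM in liver samples. The lung epithelium list summed to 4.51 to 8.19 CPM in lung samples, with each of its 4 genes detected, and to 4.67 to 7.39 CPM in liver samples, with SFTPB and SCGB1A1 at 0. The hepatocyte list went the other way, at 14.7 to 27.5 CPM in lung and 34.6 to 75.8 CPM in liver samples, without overlap. SERPINA1 led it and was lower in lung (-1.495 ± 0.35 and edgeR adjusted p = 0.127 with the mouse term, 0.00284 in DESeq2). APOA1 of that list was 0.52 ± 0.47 with the mouse term (edgeR adjusted p = 0.618), and TTR and FGB were at 0 in the liver samples. The part of these markers in the ADAMTS1 difference was not tested.

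The ADAMTS1 lung-to-liver effect of the retransplanted cells minus that of the first experiment was 0.02 ± 0.76 on the log2 scale (edgeR adjusted p = 1). For the retransplanted cells MMP14 had 896, 695 and 696 CPM in lung and 1598, 257.5 and 857 CPM in liver samples. The groups overlapped, and mouse 5 was lowest in liver. The MMP14 log2 fold change was -0.25 ± 0.53 (edgeR adjusted p = 0.887, and 0.946 with the mouse term). MMP14 over the summed TIMP genes, in RPKM, was 0.224 to 0.360 in lung and 0.199 to 0.390 in liver samples.

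Of the 31 members tested in both experiments, which share no sample, 18 had the same sign of lung against liver in subclone 2 (58.1%), beside 54.2% of all genes. All 3 lung samples of the retransplanted cells lay above all 3 liver samples for 5 of 32 members (15.6%, beside 9.98% of genes): ADAMTS1, ADAMTS10, ADAMTS14, MMP2 and MMP13. They lay below for none (beside 9.13% of genes). ADAMTS10 held 0, 0 and 3 counts and MMP13 2, 10 and 7 counts in the liver samples. Both passed the filter on low counts only through their lung samples, so their place in this count was not independent of the filter. ADAMTS14 had 18.0, 47.3 and 10.65 CPM in lung and 9.46, 0.4255 and 8.14 CPM in liver samples, a log2 fold change of 2.08 ± 0.91 that did not pass (edgeR adjusted p = 0.402).

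Several members had other levels in the retransplanted cells than in the first experiment, whose samples came from other sequencing runs. MMP1 had 11.2, 4.69 and 24.9 CPM in lung and 8.36, 0.274 and 9.70 CPM in liver samples of the retransplanted cells. In the first experiment MMP1 had 0.484, 5.65 and 0 CPM in lung and 0.770, 0 and 0.0173 CPM in liver metastases of subclone 2. ADAMTS6 had 26.2, 11.4 and 23.4 CPM in lung and 38.6, 5.99 and 52.8 CPM in liver samples of the retransplanted cells, all but 1 of them above the highest metastasis of the first experiment. MMP7 had 0.849, 0.517 and 0.717 CPM in retransplanted liver samples, where the liver metastases of subclone 2 in the first experiment had 0. FAP had 1.53, 0.744 and 1.67 CPM in lung and 1.91, 0.8815 and 5.675 CPM in liver samples of the retransplanted cells. In liver, mouse 6 was above the subclone 2 tumour of mouse 1 in the first experiment (4.71 CPM). It was below the subclone 2 tumours of mice 2 and 3, and above the subclone 13 tumours of mice 2 and 3. The tables were scaled separately, no test was made of these levels, and experiment and run cannot be told apart.

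**Figure D5:**
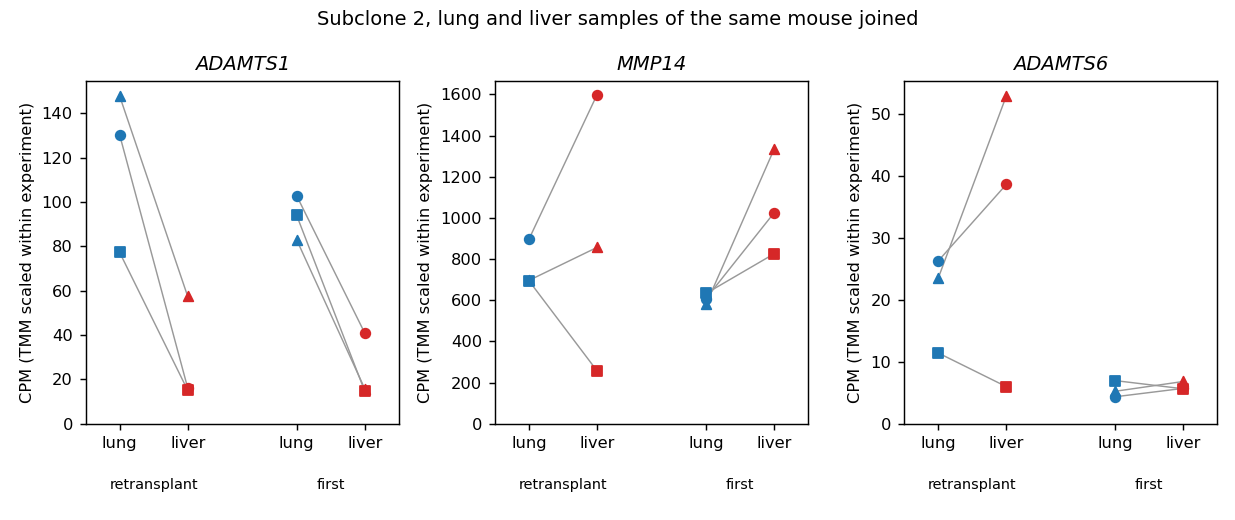
CPM of ADAMTS1, MMP14 and ADAMTS6 in lung (blue) and liver (red) samples of subclone 2, retransplanted (left; circle, square and triangle for mice 4, 5 and 6) and first experiment (right; mice 1, 2 and 3), with lines joining samples of 1 mouse. ADAMTS1 is higher in lung in all 6 mice, MMP14 is lower in lung in each mouse but mouse 5, and ADAMTS6 differs in direction between mice.

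Between subclones none of the 32 members passed in edgeR in tumours (0.109% of all genes), lung metastases (0.184%) or liver metastases (0.247%). In tumours 3 members reached 0.05 unadjusted and DESeq2 called 0 (0.482% of all genes). In lung 4 reached it and DESeq2 called 0 (1.26%), and in liver 4 reached it and DESeq2 called 2 (1.53%). With the mouse term none passed in tumours (0.505% of all genes) or lung (1.54%). In liver 1 passed with it (1.5% of all genes), ADAMTS7, higher in subclone 13 by 1.71 ± 0.63 on the log2 scale in the fit without that term (edgeR adjusted p = 0.439, and 0.0262 with it).

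ADAMTS6 was lower in subclone 13 than in subclone 2 without overlap in both metastatic organs, with log2 fold changes of -1.32 ± 0.47 in lung and -1.69 ± 0.47 in liver that did not pass (edgeR adjusted p = 0.456 and 0.196). ADAMTS12 in tumours was higher in subclone 13, by 1.40 ± 0.58, without overlap (edgeR adjusted p = 1). MMP14 was higher in subclone 13 by 0.52 ± 0.24 in tumours and 0.47 ± 0.24 in lung, without overlap (edgeR adjusted p = 1 and 0.778).

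All 3 samples of subclone 13 lay above all 3 of subclone 2 for 5 of 32 members in tumours (15.6%, beside 9.36% of genes), 5 in lung (15.6%, beside 6.6%) and 3 in liver (9.38%, beside 5.52%). They lay below for 1 member in tumours (3.12%, beside 4.16% of genes), 2 in lung (6.25%, beside 5.9%) and 1 in liver (3.12%, beside 4.37%).

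The difference of organ effects between subclones was tested as an interaction, and 0 of 32 members passed in edgeR for lung against tumour, liver against tumour and lung against liver, beside 0% of all genes in each. Unadjusted, 1, 4 and 1 members reached 0.05. DESeq2 called 0 in each (0%, 0.0172% and 0.023% of all genes), and 0 passed with the mouse term (0%, 0.00574% and 0% of all genes). For the difference between experiments 0 of 34 passed (0.00507% of all genes), 3 reached 0.05 unadjusted, DESeq2 called 1 (0.106%) and 0 passed with the mouse term (0.071%).

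Other genes of the matrix-degrading system were described by lists. Of 11 tested matrix substrates, 4 were lower in subclone 13 lung metastases than in tumours (COL1A2, COL4A1, THBS2 and TNC), 3 in subclone 2 lung metastases (COL1A2, COL4A1 and TNC), and none was higher, beside 0.419% and 0.436% of all genes called. The fit with the mouse term called 6 lower in subclone 13 lung (COL4A2 and COL5A1 added) and 7 in subclone 2 lung (COL4A2, COL5A1, FN1 and THBS1 added), beside 2.89% and 3.05% of all genes called. TNC, tenascin-C, averaged 144 ± 11.05 CPM in lung metastases and 553 ± 64.0 CPM in tumours of subclone 13 (SD, n = 3 each), and fell by 1.94 ± 0.23 on the log2 scale (SE; edgeR adjusted p = 0.000584). COL4A1, a chain of basement membrane collagen, fell by 1.57 ± 0.30 in subclone 13 lung and by 1.88 ± 0.30 in subclone 2 lung (edgeR adjusted p = 0.0213 and 0.00857).

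In liver metastases 1 substrate was lower than in tumours in subclone 13 (THBS2) and 2 in subclone 2 (COL4A1 and COL5A1), beside 0.385% and 0.287% of all genes called. The fit with the mouse term called 4 lower in subclone 13 liver (COL4A1, COL5A1, THBS2 and TNC) and 5 in subclone 2 liver (COL1A1, COL4A1, COL5A1, THBS1 and TNC), beside 1.83% and 1.68% of all genes called. THBS2, thrombospondin-2, averaged 0.460 ± 0.1525 CPM in liver metastases and 35.1 ± 10.8 CPM in tumours of subclone 13 (SD, n = 3 each). In subclone 2 tumours THBS2 averaged 0.601 ± 0.3155 CPM, and subclone 13 tumours were higher by 5.92 ± 1.04 on the log2 scale (edgeR adjusted p = 0.0259). COL1A2, a chain of fibrillar collagen, was lower in lung than in liver in subclone 2 (-2.57 ± 0.41, edgeR adjusted p = 0.0402), and that effect differed from the one in retransplanted cells (edgeR adjusted p = 0.00221).

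The plasminogen system, which activates several MMPs, had 6 tested genes, and none passed in edgeR without the mouse term. PLAU, urokinase, was lower in lung metastases than in tumours with the mouse term, with log2 fold changes of -1.26 ± 0.30 in subclone 13 and -1.19 ± 0.30 in subclone 2 (edgeR adjusted p = 0.0248 and 0.0329). Its receptor gene PLAUR was lower with that term in subclone 13 lung and liver (-0.86 ± 0.23 and -1.06 ± 0.23, edgeR adjusted p = 0.0428 and 0.017). PLAT, tissue plasminogen activator, was higher with it in subclone 2 lung (0.89 ± 0.18, edgeR adjusted p = 0.00913).

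In none of the metastasis-to-tumour comparisons did a gene pass in edgeR without the mouse term among 8 ADAM sheddases, 7 cathepsin and heparanase genes, 4 ADAMTS-like genes, 4 other inhibitors or cofactors, 2 proprotein convertases or 11 AP-1 and ETS factor genes. With the mouse term PAPLN, which encodes the ADAMTS-like matrix protein papilin, passed as higher in lung metastases of both subclones, and ADAM19 and ADAMTSL1 passed as lower there. In subclone 13 lung metastases the sheddase ADAM12 (-2.33 ± 0.50), the proprotein convertase FURIN (-1.42 ± 0.27) and the cathepsin CTSB (-0.96 ± 0.20) were also lower with that term (edgeR adjusted p = 0.0145, 0.00666 and 0.0119). In subclone 2 lung metastases the sheddase ADAM17 was lower with it (-0.74 ± 0.19, edgeR adjusted p = 0.0365). FOS, an AP-1 factor, was higher in lung metastases of both subclones with that term (1.96 ± 0.36 in subclone 13 and 2.22 ± 0.36 in subclone 2, edgeR adjusted p = 0.00512 and 0.00176), and ETS1 was lower (-0.85 ± 0.22 and -1.08 ± 0.22, edgeR adjusted p = 0.0402 and 0.00995). In subclone 2 lung metastases 5 of the 11 AP-1 and ETS factor genes were higher with the mouse term, FOS, FOSL2, JUN, JUNB and JUND. In those subclone 2 lung metastases JUN was higher by 1.22 ± 0.27 on the log2 scale (edgeR adjusted p = 0.0177 with the mouse term). Against tumours the mouse-term fit called, in either direction, 3.05% of all genes in subclone 2 lung and 2.89% in subclone 13 lung. In liver it called 1.68% in subclone 2 and 1.83% in subclone 13. In liver metastases FOS was higher in subclone 2 and ETS1 lower in subclone 13 with that term (1.70 ± 0.36 and -0.90 ± 0.22, edgeR adjusted p = 0.0172 and 0.0366).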

How the data were processed

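RNA of sorted cells was measured by bulk RNA sequencing (miRNeasy micro kit, TruSeq RNA v2 kit, per the labels' protocols). The values are raw gene counts as deposited by the authors, and per the submitters' processing notes bcl2fastq 2.15.0.4, cutadapt, STAR, featureCounts and GRCh38 were used, with no order given. The 3 libraries of each subclone 13 sample of mouse 1 were summed. Differences were tested in R 4.3.3 with edgeR 4.0.16 (quasi-likelihood F test, TMM scaling, filterByExpr with a minimum count of 10), over all groups of an experiment and all genes, with Benjamini-Hochberg adjustment and a threshold of 0.05. SE is the log2 fold change over the root of F. The procedure was tested on simulated data. For subclone 2 lung against tumour it recovered 4 of 97 genes changed 2-fold and 58 of 99 changed 4-fold. For retransplanted lung against liver it recovered 9 of 99 and 66 of 97. Most 2-fold changes were thus missed there, so a member that did not pass can still differ. DESeq2 1.42.0 and the other alternatives are given at the end. Exon lengths, gene types and coordinates came from GENCODE v29, promoters from RefSeq, and 31272 of 40950 gene IDs had a symbol. Members and lists were chosen with earlier results of these data known. The result for 1 gene of these lists is not reported here. Values in every sample were given for members past the threshold without or with mouse as a term, and for the 10 highest members per exon length. Labels give lung, liver and tumour samples of 1 mouse the same number, and deviations from group means of same-mouse samples correlated (median r of 0.359 over 45 pairs, lowest 0.152, and 0.304 over 3 retransplantation pairs, lowest 0.279). Mouse number was therefore used as a pairing in the fit with the mouse term, while the main fit ignored it. In the first experiment mouse and sequencing run mostly coincided, so the correlation over its 45 pairs cannot tell them apart. Counting precision is limited for members with few counts.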

Additional observations from a re-analysis of the deposited data

How the results depend on the processing

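No result changed direction under the alternatives run, and the number of members called depended on the fit. With mouse as a replicate block, edgeR called 5 members in subclone 13 lung against tumour (1 without), 5 in subclone 2 lung against tumour (1), 3 in subclone 2 liver against tumour (0), 4 in subclone 2 lung against liver (0), 1 in liver between subclones (0) and 1 in retransplanted lung against liver (0). In the same order DESeq2 called 5, 4, 4, 3, 2 and 1, and 1 for the difference between experiments. With no filter on low counts edgeR called 5, 4, 5, 2, 1 and 5, and 1 each in tumours and lung between subclones and in the subclone difference in liver against tumour. Calls over all genes are not given for that setting. Its counts thus have no background share and are not read as a result about the members. Fits of only the groups compared called 2 in subclone 13 lung, 0 in subclone 2 lung and 1 in subclone 13 liver, where 2 were called otherwise. That last count was also 1 with RLE scaling and with library 1, 2 or 3 alone for subclone 13 of mouse 1, and library 3 alone gave 2 in subclone 13 lung. Leaving out 1 sample or mouse gave 0 to 2 called members in subclone 13 lung against tumour, 0 to 1 in subclone 2 lung against tumour, 0 to 1 in subclone 13 liver against tumour and 0 to 2 in subclone 2 liver against tumour. It gave 0 to 1 in subclone 2 lung against liver, in tumours between subclones and in retransplanted lung against liver, and 0 in the other comparisons. The causes were not tested. Members under 1 CPM rest on few counts, so that smaller differences in them were not detectable at this depth.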
